A study of Mus musculus with 4 samples.

Results

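Heat shock chaperones were followed through 10 genes chosen by name: the inducible cytosolic Hsp70 genes Hspa1a and Hspa1b, their constitutive relative Hspa8, the exchange factor Hsph1, the co-chaperone Dnajb1, the cytosolic Hsp90 gene Hsp90aa1, the small heat shock protein Hspb1, the mitochondrial chaperonin pair Hspd1 and Hspe1, and the transcription factor Hsf1. All 10 were found among the 38924 genes listed, and all 10 had enough reads to be tested. The libraries came from kidney pieces of female CB-17 SCID mice (Balb/c background), a strain without functional B and T cells, so the controls share that immune defect. Into the tail vein the mice received saline (2 libraries) or preformed complexes of IgG with galactose-deficient IgA1 (2 libraries), which is the antigen of the autoantibodies in IgA nephropathy, as 3 doses within 7 days, and kidneys were taken the day after the last dose. Age, and which part of the kidney was taken, are not in the labels, and the labels do not state that each library came from its own mouse, so p-values measure only the spread between these samples. The comparison asks what the complexes do to the kidney transcriptome. Kidney identity was checked with markers fixed by cell type: summed proximal tubule markers stood between 7973 and 8357 CPM in the 4 libraries, and thick ascending limb, podocyte and principal cell markers were all read in each.

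Heat shock proteins bind unfolded protein chains and hold or refold them. Hsp70 proteins work in cycles in which J-domain proteins such as Dnajb1 deliver the chain and start ATP cleavage, and Hsp110 proteins such as Hsph1 exchange the nucleotide so that the chain is let go. Hsp90 completes the folding of kinases and hormone receptors, small heat shock proteins hold chains without ATP, and the Hspd1 barrel with its Hspe1 lid folds proteins inside mitochondria. Under proteotoxic stress the factor Hsf1 forms trimers that bind repeats of the unit GAA, called heat shock elements, in front of many of these genes. In the kidney, cells of the hypertonic medulla are known for high levels of inducible Hsp70 and small heat shock proteins.

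The inducible Hsp70 genes are near copies, which sets how their reads can be told apart. Hspa1b lies at chr17:34956436-34959238 and Hspa1a at chr17:34969199-34972154 (GRCm38, minus strand), 9960 bases apart, and each is 1 exon in GENCODE M21. Coordinates of the other genes are in the same build. Of 1926 aligned coding bases, 8 differ (99.6% identity), and the longest identical stretch is 638 bases. The 60 coding bases from position 1357 to 1416, counted from the start codon, hold 2 of the differences, shown in capitals, and are printed to show how little separates the copies.
Hspa1a: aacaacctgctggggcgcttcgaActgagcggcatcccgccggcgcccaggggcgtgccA
Hspa1b: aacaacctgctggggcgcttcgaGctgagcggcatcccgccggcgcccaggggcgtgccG

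The copies also begin behind almost the same sequence. The 250 bases before the start site (RefSeq, GRCm38.p6) are printed for both copies, at chr17:34972157-34972406 for Hspa1a and chr17:34959239-34959488 for Hspa1b, and for Hsph1, at chr5:149636337-149636586, because these 3 genes varied most among the 10. All are on the minus strand and run 5′ to 3′, with capitals on the GAA and TTC units of a heat shock element.
Hspa1a: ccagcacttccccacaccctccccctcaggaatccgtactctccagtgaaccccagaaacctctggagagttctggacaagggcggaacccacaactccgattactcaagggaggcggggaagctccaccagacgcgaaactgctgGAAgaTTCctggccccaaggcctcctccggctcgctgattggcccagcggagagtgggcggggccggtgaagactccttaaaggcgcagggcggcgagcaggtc
Hspa1b: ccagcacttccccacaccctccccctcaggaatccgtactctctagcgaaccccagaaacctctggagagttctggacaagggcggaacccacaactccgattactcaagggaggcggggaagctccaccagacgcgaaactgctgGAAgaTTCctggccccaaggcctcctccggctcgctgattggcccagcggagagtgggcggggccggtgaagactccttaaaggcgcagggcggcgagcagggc
Hsph1: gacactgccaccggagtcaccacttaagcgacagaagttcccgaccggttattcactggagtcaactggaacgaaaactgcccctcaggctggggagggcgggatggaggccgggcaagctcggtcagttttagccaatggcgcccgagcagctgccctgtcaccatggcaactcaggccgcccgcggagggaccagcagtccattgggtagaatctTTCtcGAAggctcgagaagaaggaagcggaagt
Between the Hsp70 copies 3 of these 250 bases differ. Each holds the letters GAANNTTC at 104 to 97 bases before the start site.

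Heat shock elements were searched on both strands in windows from 250 bases before to 50 after the start site, as GAANNTTC, as TTCNNGAA, and as the longer GAANNTTCNNGAA, whose other strand reads TTCNNGAANNTTC and which contains both short forms. Of the 10 genes 7 had a window, all but Hspa8, Hsp90aa1 and Hsf1, and 6 of these 7 held a short form, which 17% of all 27025 genes with a window did. The long form was in 3 of the 7, Hsph1, Hspd1 and Hspe1, against 0.662% of all genes. Dnajb1 held none of these letters in its windows, Hspb1 held GAANNTTC at 2 places, and the long form of Hsph1 lies 36 to 48 bases after its start. Hspd1 and Hspe1 stand head to head on chromosome 1 with gene models that overlap by 112 bases, and the same element, at chr1:55088053-55088082, lies in the window of Hspe1 and in 1 of the 2 windows of Hspd1. It is printed once for each strand.
Hspe1: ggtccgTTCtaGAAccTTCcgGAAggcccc
Hspd1: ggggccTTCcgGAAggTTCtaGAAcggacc
The other window of Hspd1, before the start site at the end of its gene model, held none of these letters. A match of letters is a description of the sequence and not a measured binding site.

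The share of reads placed at 1 location (unique reads) divided the 10 genes sharply. It was 100% for Dnajb1 and Hsf1 and at least 99.97% for Hsph1, so their counts do not depend on how shared reads were divided. For Hspa8 it was 5.16% to 6.91%, for Hsp90aa1 14.9% to 16.7%, for Hspa1a 18.3% to 22.4%, for Hspb1 22.0% to 27.5%, for Hspa1b 25.3% to 29.5%, for Hspd1 37.2% to 39.7% and for Hspe1 72.8% to 78.0%. Over the libraries as a whole 83.4% to 85.0% of reads were unique. The 95% Wilson interval was widest for Hspa1a, at 5.03 percentage points to either side, and covers counting error alone, since the labels name no molecular identifiers and reads may then not be independent molecules. In GENCODE M21 transcripts, the share of 50-base words that a second gene also holds was 74.8% for Hspa8, 66.3% for Hspa1a, 62.3% for Hspa1b, 60.4% for Hspb1, 58.5% for Hsp90aa1 and 44.8% for both Hspd1 and Hspe1, against 0% for Hsph1 and Hsf1. In the Hsp70 copies 82.3% of the coding words of Hspa1a were found in Hspa1b, and 0% of the words after its stop codon. The sources used here do not give how the counter divided reads with several locations.

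**Figure D1:**
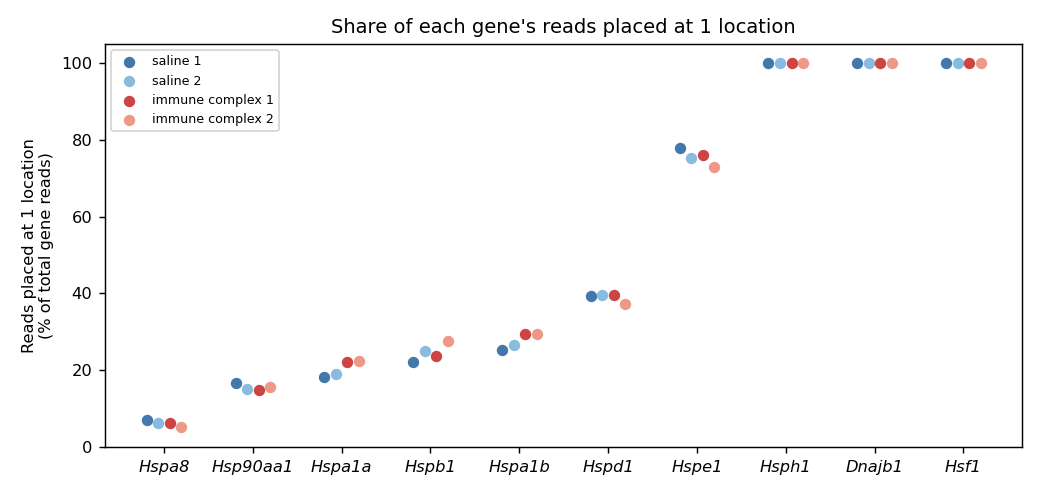
Reads placed at 1 location as a percentage of the total gene reads (y axis, %) for each of the 10 genes (x axis), with 1 point per library. Hsph1, Dnajb1 and Hsf1 sit at or next to 100%, whereas Hspa8 stays between 5.16% and 6.91%.

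Levels are compared between genes per length of exon, in the RPKM that the authors deposited, which include reads with several locations. The deposited exon length is 7042 bases for Hsph1 and 4156 for Hspa8, where the GENCODE M21 transcripts used here have 3802 and 2394. For Hspa1b both are 2803, so the scaling is uneven between genes. Hspa8 was highest in these values, between 179.7 and 253.8 RPKM, followed by Hspd1 between 150.0 and 213.7 RPKM, and these ranges overlapped. The first place of Hspa8 rests on reads with several locations. In unique reads, not scaled by length, Hspa8 stood at 56.2 to 66.0 CPM, below Hspd1 at 179.1 to 255.6 CPM. Hspe1 stood between 87.0 and 113.7 RPKM and Hsp90aa1 between 66.0 and 108.7 RPKM, also overlapping. Hspb1 followed at 22.7 to 36.9 RPKM. The regulator Hsf1 was low and even, at 9.69 to 12.9 RPKM, close to Dnajb1 at 11.4 to 16.6 RPKM. The place of the inducible genes in this order depended on the library: Hspa1b ranged from 13.5 to 126.2 RPKM, Hsph1 from 10.2 to 32.0 RPKM and Hspa1a from 3.84 to 19.9 RPKM.

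The inducible Hsp70 pair had the largest fold differences among the 10 genes, and its highest library was saline 1. Hspa1b had 6961 and 2213 total reads in saline 1 and 2, and 860 and 1433 in immune complex 1 and 2. As CPM, counts scaled to equal library size, these are 342.4 and 104.7 with saline and 38.5 and 67.7 with immune complexes. The groups did not overlap, but saline 1 stood 3.27 times above saline 2, the next highest library. The difference of immune complex against saline was -2.07 ± 0.56 on the log2 scale (SE; edgeR quasi-likelihood adjusted p = 0.815). It did not pass the test.

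Hspa1a followed the same order at a lower level. It had 1158 and 460 total reads with saline and 259 and 451 with immune complexes, or 57.0 and 21.8 CPM against 11.6 and 21.3 CPM. Saline 2 and immune complex 2 were nearly equal, so the groups were separated by a narrow margin. The log2 difference was -1.26 ± 0.48 (edgeR adjusted p = 1.0). In unique reads Hspa1a had 212 and 87 reads with saline and 57 and 101 with immune complexes, where the groups overlapped after scaling (4.89 CPM in saline 2, 5.66 CPM in immune complex 2). Unique reads of Hspa1b were 1762 and 587 against 254 and 421, in the same order as its total reads.

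Summed into 1 gene, the pair stood at 399.4 and 126.4 CPM with saline and 50.1 and 89.0 CPM with immune complexes. The log2 difference of the sum was -1.92 ± 0.54 with total reads (edgeR adjusted p = 0.865) and -1.74 ± 0.52 with unique reads (edgeR adjusted p = 0.836). Single libraries decided these values. Without saline 1 the difference of Hspa1b was -0.98 and that of Hspa1a -0.40, and without saline 2 they were -2.70 (edgeR adjusted p = 2.21e-09) and -1.80 (edgeR adjusted p = 0.000319), where both passed. In that setting the lone saline library is assumed to vary as the immune complex libraries do. In the authors' deposited table, turned to immune complex over saline, Hspa1a has a log2 fold change of -0.64 (adjusted p = 0.239) and Hspa1b one of -0.37 (adjusted p = 1.0). By size of fold change the deposited table puts Hspa1a before Hspa1b, the reverse of the read counts. DESeq2 on these counts gave larger values with larger standard errors, -1.27 ± 0.40 for Hspa1a and -2.08 ± 0.87 for Hspa1b. The deposited standard errors are 0.21 and 0.17. Whether the deposited fold changes are on the same scale, and why the order and the sizes differ, was not tested.

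The balance between the copies also differed between the libraries. Hspa1b took 85.7% and 82.8% of the pair's total reads with saline and 76.9% and 76.1% with immune complexes. In unique reads the shares were 89.3% (95% Wilson interval 87.8 to 90.6) and 87.1% (84.3 to 89.4) with saline, against 81.7% (77.0 to 85.6) and 80.7% (77.0 to 83.8) with immune complexes. Both groups were apart in both kinds of read, and the unique-read intervals of saline 2 and immune complex 1 overlapped. With 2 libraries against 2, an exact two-sided permutation test cannot reach the threshold, since the smallest p it allows is 0.333, and the shares are given as a description.

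**Figure D2:**
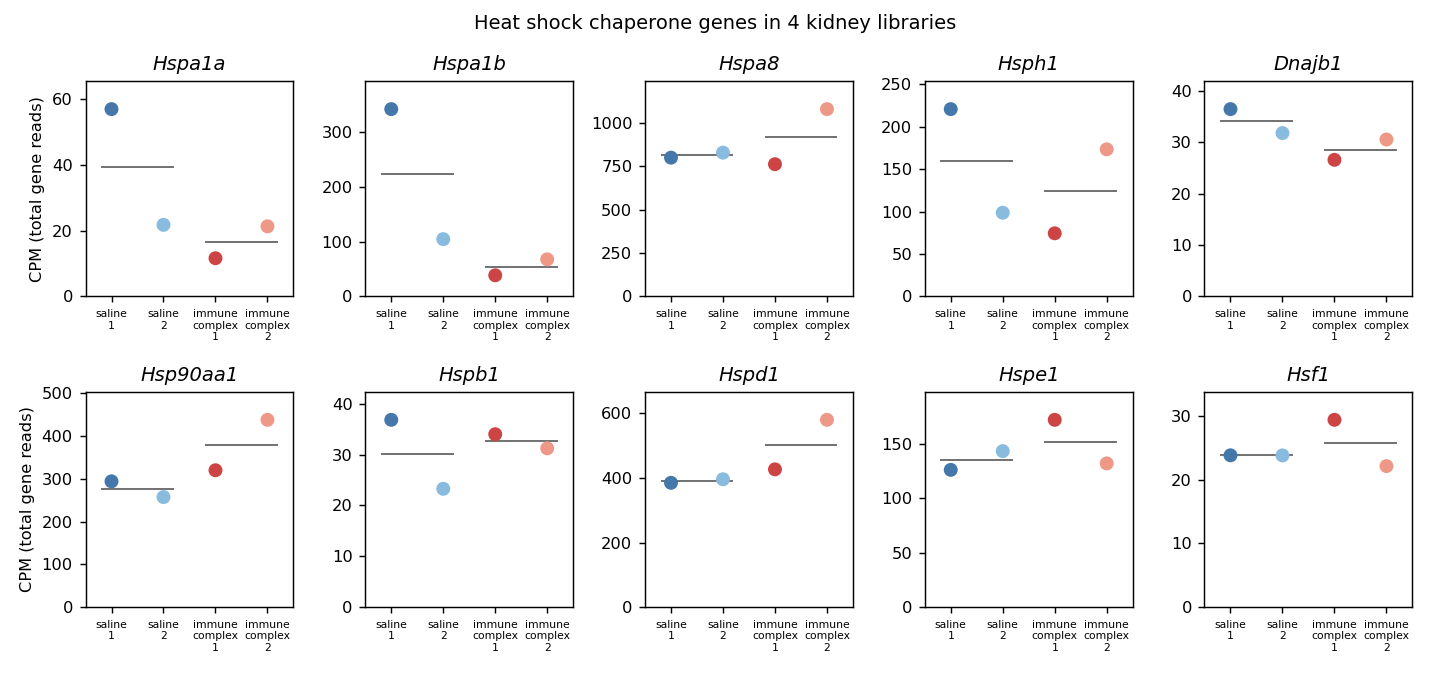
Each panel is 1 gene, with CPM from total gene reads (y axis, from 0) in the 4 libraries (x axis), and grey lines at the mean of each group (n = 2). Saline 1 stands apart for Hspa1a and Hspa1b, at 57.0 and 342.4 CPM, while Hsph1 is high in saline 1 and immune complex 2, and Hspa8, Hspd1 and Hsp90aa1 are highest in immune complex 2.

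Most markers of the collecting duct were highest in the same library as the pair. Each of the 8 principal cell markers was lower on average with immune complexes, and 7 were highest in saline 1. Their sum was 2261 and 879.8 CPM with saline and 795.4 and 621.2 CPM with immune complexes, and none was at 0. The water channel gene Aqp2, which made up most of the saline 1 sum, had 1704 and 544.3 CPM against 528.0 and 301.9 CPM. Part of the list was flat, with log2 differences of -0.06 ± 0.22 for Scnn1b and -0.02 ± 0.18 for Scnn1g. Of 6 inner medulla and osmolyte genes 4 were highest in saline 1 and 2 in immune complex 2, with sums of 880.4 and 520.5 CPM with saline and 538.4 and 847.3 CPM with immune complexes. Akr1b3, the aldose reductase that makes sorbitol, had the largest difference of the 6. It stood at 280.5, 41.3, 14.1 and 53.6 CPM in saline 1, saline 2, immune complex 1 and immune complex 2. On average 4 of the 6 were lower with immune complexes and 2 higher. The higher ones were Slc6a6, at 343.8 and 354.7 CPM against 420.8 and 599.0 CPM, and Slc6a12, at 12.2 and 6.95 CPM against 10.4 and 21.3 CPM. In a tissue piece, fewer cells of a type and less RNA per cell cannot be told apart, and the part of these markers in the Hsp70 values was not tested. Summed adipocyte markers ran the other way, at 56.6 and 457.4 CPM with saline and 1439 and 1101 CPM with immune complexes, with Lep at 0 reads in saline 1, and their part was not tested either. All 7 thick ascending limb markers were lower on average with immune complexes, 5 of them highest in saline 1, with sums of 8224 and 7746 CPM against 5537 and 8177 CPM. All 7 urothelium markers were lower on average too, with sums of 75.5 and 92.3 CPM against 16.4 and 18.3 CPM. The saline libraries differed in kind: 2 markers, Psca (46.3 CPM) and Upk3b (23.8 CPM), were highest in saline 1 and made up most of its sum. The other 5 were highest in saline 2 and lowest in saline 1, below both immune complex libraries. The 5 erythroid and 8 macrophage markers were all higher, with erythroid sums of 534.1 and 473.3 CPM against 897.5 and 916.0 CPM and macrophage sums of 151.3 and 159.3 CPM against 181.0 and 222.7 CPM. The part of these lists was not tested. Of 11 immediate early genes tested, which respond to handling within minutes, 10 were lower on average with immune complexes and 1 higher. Saline 2 was the highest library for 8 of them. Their sums were 226.7 and 253.5 CPM with saline and 220.7 and 175.6 CPM with immune complexes, and their part was not tested.

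The genes with the most similar profile were found by the Euclidean distance between log2 CPM values centred over the 4 libraries, among 12963 named genes whose mean reached 1 CPM (gene-model and clone symbols left out). The 5 nearest to the summed pair were Map6, Sbspon, Elf5, Muc1 and Coch. Elf5, a transcription factor of principal cells and one of the fixed markers, stood at 23.6 and 9.27 CPM with saline and 3.18 and 4.96 CPM with immune complexes. Muc1, an epithelial mucin, stood at 120.9 and 39.0 CPM against 19.0 and 25.0 CPM. Map6, a microtubule-stabilising protein, stood at 10.4 and 3.12 CPM against 1.43 and 2.505 CPM. None of the other heat shock genes was among these 5: Hsph1 ranked 268 and Dnajb1 1036. A likeness over 4 libraries is a description only.

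**Figure D3:**
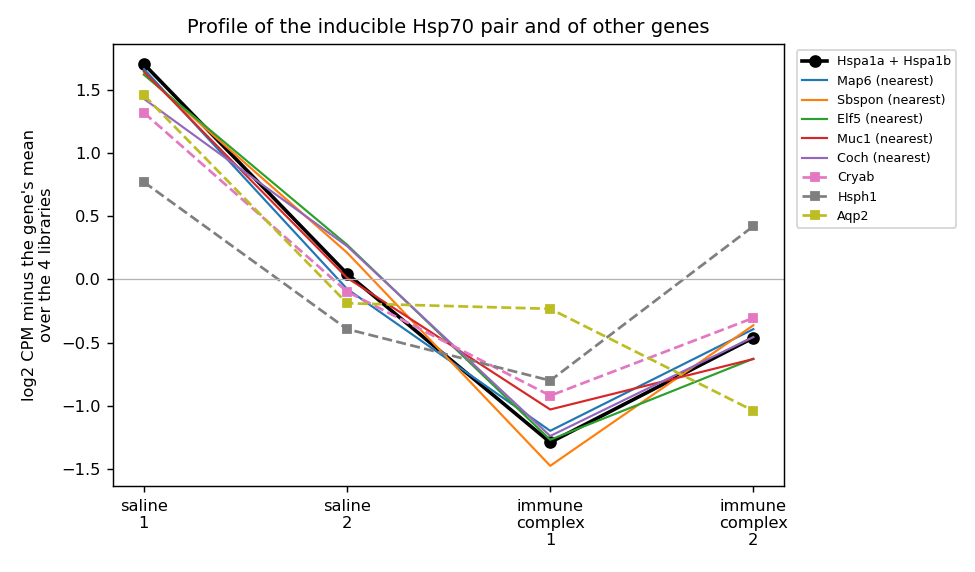
Log2 CPM minus the mean of each gene over the 4 libraries (y axis) in each library (x axis), for the summed Hsp70 pair (black), its 5 nearest genes (solid) and Cryab, Hsph1 and Aqp2 (dashed), with lines that only join the points of a gene. The 5 nearest genes and Cryab are highest in saline 1 and lowest in immune complex 1, as the pair is, whereas Hsph1 is nearly as high in immune complex 2 as in saline 1.

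The partners of Hsp70 had other profiles. Hsph1 (chr5:149614287-149636376, minus strand) stood at 220.7 and 98.6 CPM with saline and 74.3 and 173.3 CPM with immune complexes. Each group held a high and a low library, 2.24 times apart with saline and 2.33 times apart with immune complexes, so the groups overlapped. The log2 difference was -0.37 ± 0.49 (edgeR adjusted p = 1.0), and it turned to 0.33 without saline 1 and to 0.12 without immune complex 1. All but 1 of the 4487 reads of Hsph1 in saline 1 were unique.

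Dnajb1 was the steadier of the Hsp70 partners. The gene (chr8:83608175-83611902, plus strand) stood at 36.5 and 31.8 CPM with saline and 26.6 and 30.6 CPM with immune complexes. The groups did not overlap, with a log2 difference of -0.26 ± 0.18 (edgeR adjusted p = 1.0), between -0.36 and -0.16 when single libraries were left out.

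The constitutive Hspa8 (chr9:40800984-40805200, plus strand), which folds new proteins in unstressed cells, stood at 800.6 and 829.6 CPM with saline and 762.9 and 1081 CPM with immune complexes. Only immune complex 2 was apart from the other libraries, and the groups overlapped (log2 difference 0.18 ± 0.22, edgeR adjusted p = 1.0). With unique reads the difference was -0.05 ± 0.18 (edgeR adjusted p = 1.0), from 1124 and 1079 reads with saline and 1052 and 1179 with immune complexes. Gm26825, a long noncoding RNA gene in GENCODE M21, holds 69% of the 50-base words of Hspa8, and Gm15459, which is not among the genes counted, holds 70%. Gm26825 was assigned 9590 and 10075 total reads with saline and 8836 and 11629 with immune complexes, of which 273, 259, 228 and 234 were unique. The level of Hspa8 is therefore uncertain by this share, and the sum of both genes stood at 1272 and 1306 CPM against 1159 and 1630 CPM, a log2 difference of 0.11 ± 0.22 (edgeR adjusted p = 1.0). Gm26825 was chosen after its values were seen.

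Hsp90aa1 (chr12:110690605-110702728, minus strand), the stress-inducible cytosolic Hsp90, had higher values in both immune complex libraries, with 294.1 and 257.3 CPM with saline and 320.0 and 437.9 CPM with immune complexes. The groups did not overlap in total reads, and the log2 difference was 0.46 ± 0.22 (edgeR adjusted p = 1.0). In unique reads they did overlap, since immune complex 1 (56.8 CPM) stood below saline 1 (58.1 CPM), and the difference was 0.41 ± 0.23 (edgeR adjusted p = 1.0). Without immune complex 2 the total-read difference was 0.21. Its constitutive relative Hsp90ab1 stood at 928.8 and 916.0 CPM with saline and 1072 and 1090 CPM with immune complexes, where the groups did not overlap and the spread within each group was small. Its log2 difference was 0.23 ± 0.17 (edgeR adjusted p = 1.0).

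The small heat shock protein Hspb1 (chr5:135887919-135889563, plus strand), which binds unfolded chains and actin filaments, stood at 36.8 and 23.3 CPM with saline and 34.0 and 31.2 CPM with immune complexes. In total reads the saline libraries enclosed both immune complex libraries, and the log2 difference was 0.12 ± 0.25 (edgeR adjusted p = 1.0). It was 0.49 without saline 1 and -0.19 without saline 2. Unique reads of Hspb1 numbered 165 and 123 with saline and 180 and 182 with immune complexes. Scaled, these were 9.63 and 6.92 CPM against 9.62 and 10.2 CPM, so that immune complex 2 was the highest library, and the log2 difference was 0.26 ± 0.25 (edgeR adjusted p = 1.0).

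The mitochondrial chaperonin genes, which share the element printed above in their windows, peaked in different libraries. That element lies inside the gene model of Hspd1 and before the start of Hspe1. Hspd1 (chr1:55077835-55088243, minus strand) stood at 385.0 and 395.9 CPM with saline and 426.7 and 580.1 CPM with immune complexes. Its groups did not overlap, and the log2 difference was 0.37 ± 0.21 with total reads and 0.33 ± 0.19 with unique reads (edgeR adjusted p = 1.0 for both). Without immune complex 2 it was 0.13. Hspe1 (chr1:55088132-55091307, plus strand) stood at 125.9 and 143.1 CPM with saline and 171.9 and 131.8 CPM with immune complexes, where the groups overlapped (log2 difference 0.17 ± 0.20, edgeR adjusted p = 1.0). Hspd1 was highest in immune complex 2 and Hspe1 in immune complex 1. The sources used here do not give whether counting used strand, so reads in the 112 shared bases cannot be assigned to either gene.

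Hsf1 itself (chr15:76477445-76500972, plus strand) was even, at 23.9 and 23.8 CPM with saline and 29.4 and 22.2 CPM with immune complexes. The immune complex libraries enclosed both saline libraries, and the log2 difference was 0.11 ± 0.21 (edgeR adjusted p = 1.0). Intron reads made up 7.42% to 9.89% of its reads, more than for any other of the 10 genes. RNA counts say nothing of the activity of the Hsf1 protein.

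Counted together, 0 of the 10 genes passed edgeR's quasi-likelihood test, and 0 of 16334 genes did (0%). At an unadjusted p under 0.05 there were 2 of 10, Hspa1a and Hspa1b, against 4.59% of all tested genes (2.6% for lower ones), and most reads of these near copies had several locations. With unique reads the edgeR unadjusted p was 0.00974 for Hspa1b and 0.0853 for Hspa1a, so Hspa1a was no longer under 0.05. After adjustment edgeR called 0 of the 10 with unique reads, against 0.00657% of all genes. DESeq2 and limma-voom also called 0 of the 10, against 0.604% and 0% of the genes they tested, and the authors' deposited table calls 0 of 10, against 0.538%. The groups did not overlap for 5 of 10 genes, against 30% of all genes: Hspa1a, Hspa1b and Dnajb1 were lower with immune complexes (14.6% of all genes) and Hsp90aa1 and Hspd1 higher (15.4%). With unique reads it was 3 of 10 (Hspa1b, Dnajb1 and Hspd1), against 30.1%. The median log2 difference of the 10 was 0.12, beside 0.01 over all genes. Saline 1 was the highest library for 5 of the 10, against 22% of all genes, and it exceeded the median of the other libraries at least 3 times for 1 of the 10, Hspa1b, against 0.9% of all genes.

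**Figure D4:**
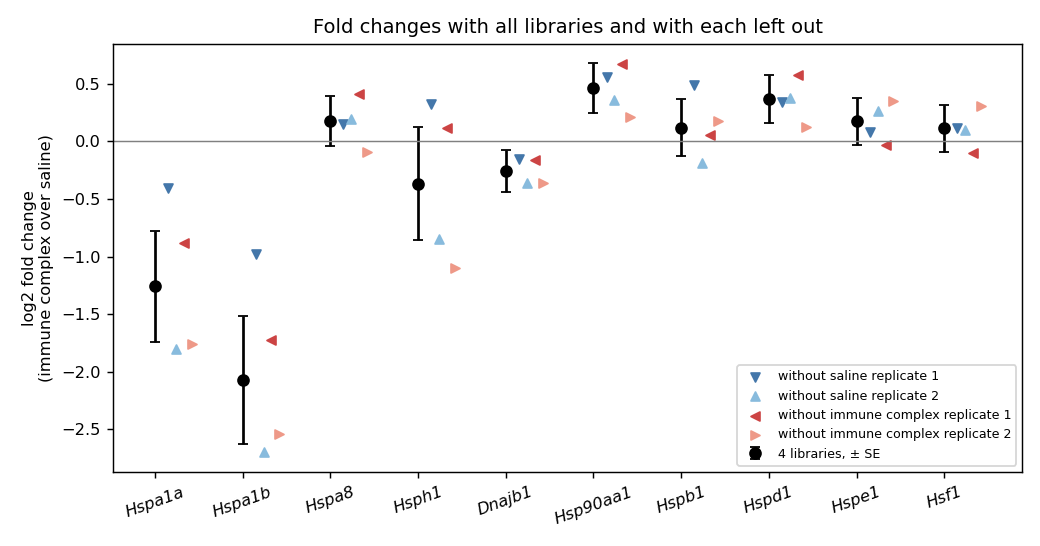
Log2 fold change of immune complex over saline (y axis) for the 10 genes (x axis), as the edgeR value ± SE with 4 libraries (black) and the values with each library left out (triangles). Hspa1b moves from -0.98 without saline 1 to -2.70 without saline 2, and Hsph1, Hspa8, Hspb1, Hspe1 and Hsf1 cross 0.

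The wider chaperone system was described with 9 lists of 74 matched genes, of which 70 were tested. None passed edgeR's test, 1 (Cryab) had an unadjusted p under 0.05, and DESeq2 and limma-voom called 0. There were 48 higher and 22 lower with immune complexes, beside 8481 and 7853 of all genes tested. The groups were apart for 16 higher and 5 lower of the 70, where 15.4% and 14.6% of all genes were. Among small heat shock proteins Cryab, which encodes alpha-B crystallin, followed the Hsp70 pair, at 365.2 and 136.9 CPM with saline and 77.4 and 118.5 CPM with immune complexes. Its log2 difference was -1.36 ± 0.46 (edgeR adjusted p = 0.965), or -0.49 without saline 1, and it passed without saline 2 (-1.91, edgeR adjusted p = 0.000131). Hspb2, a muscle-enriched small heat shock protein, stood at 3.00 and 1.32 CPM against 1.03 and 1.18 CPM. Its log2 difference was -0.96 ± 0.48 (-0.26 without saline 1). The 2 of 5 skeletal muscle markers with enough reads to be tested summed to between 0.896 and 1.77 CPM. All 5 smooth muscle markers were higher on average with immune complexes, with sums of 64.2 and 107.4 CPM against 138.7 and 113.2 CPM. The part of muscle in the Hspb2 values was not tested. The small heat shock protein list had 2 higher and 3 lower of 5 tested, with a median of -0.11. The principal cell sums given above were also highest in saline 1, and their part in the Cryab values was not tested.

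The other lists lay close to 0. All 8 genes of the TRiC chaperonin, the ring that folds actin and tubulin, were higher, with a median log2 difference of 0.14 (0.024 without immune complex 2) and groups apart for 5, where 15.4% of all genes were apart and higher. Cct4 and Tcp1 differed by 0.20 ± 0.20 and 0.16 ± 0.18, and by -0.01 and 0.016 without immune complex 2. The median was 0.12 for Hsp70 and Hsp110 relatives (5 higher, 1 lower). Among them Hspa2, the testis-enriched Hsp70, was at -0.53 ± 0.27 (-0.25 without immune complex 1) and Hspa12b at 0.32 ± 0.22. J-domain co-chaperones had 7 higher and 2 lower (median 0.098), with Dnajc7 at 0.23 ± 0.16 and Dnajb5 at 0.20 ± 0.26. Mitochondrial chaperones and proteases had 5 higher and 3 lower (median 0.071), with Grpel2 at 0.26 ± 0.19 and the unfoldase gene Clpx at 0.27 ± 0.20, or 0.11 and 0.075 without immune complex 2. Co-chaperones of Hsp70 and Hsp90 had 10 higher and 7 lower (median 0.066), with Chordc1 at 0.37 ± 0.27 (-0.07 without immune complex 2) and Bag2 at -0.26 ± 0.20. Chaperones of the endoplasmic reticulum had 8 higher and 4 lower (median 0.072), with Hsp90b1 at 0.27 ± 0.19 (0.11 without immune complex 2) and Creld2 at 0.28 ± 0.21 (0.038 without immune complex 1). Of the heat shock factors and their regulators, Hsf4 differed by -0.15 ± 0.47 and Hsbp1, which binds Hsf1 trimers, by -0.06 ± 0.19. Of the pair of Hsp90 relatives, mitochondrial Trap1 differed by 0.07 ± 0.17. Without 1 of the libraries the sign turned for Hsf4, Hsbp1, Dnajb5 and Trap1 as well as for Cct4 and Chordc1. Each of these genes had an edgeR adjusted p of 1.0.

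**Figure D5:**
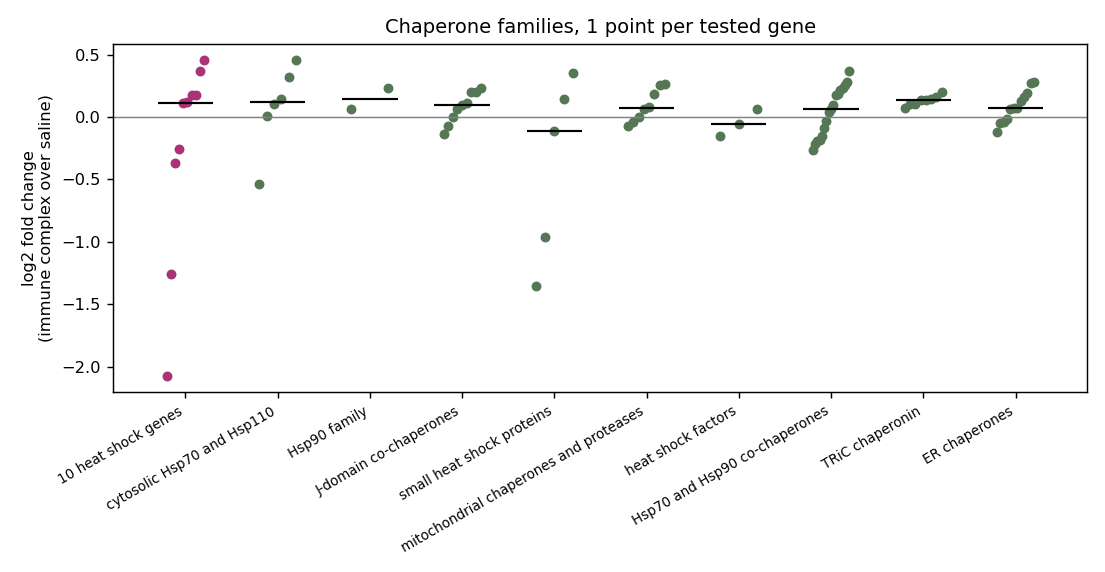
Log2 fold change of immune complex over saline (y axis) for each tested gene of the 10 heat shock genes and of 9 related lists (x axis), 1 point per gene, with a black line at the median. The lowest points are Hspa1b at -2.07, Cryab at -1.36 and Hspa1a at -1.26, and the TRiC genes lie close together around 0.14.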

How the data were processed

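Kidney pieces kept in RNAlater gave RNA for Illumina sequencing, per the labels' protocols. STAR 2.5.2b, DESeq2 and GRCm38 are named, without a role for each, in the submitters' processing notes. The read counter, annotation release and strand setting are not named in the sources used here. The deposited tables hold raw read counts per gene (total, unique, exon and intron reads), gene and exon lengths in bases, and RPKM values that the authors computed, per the file headers. A further deposited table holds the authors' comparison, with log2 fold changes, p-values and adjusted p-values and a mean normalised signal per gene, per the file headers. It was turned to immune complex over saline, because the deposited sign opposed the reads for all 80 genes that it calls.

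Libraries held 19675879 to 22791960 total gene reads. The main test was edgeR 4.0.16 under R 4.3.3 (glmQLFit, glmQLFTest) after filterByExpr and TMM scaling, two-sided, Benjamini-Hochberg adjusted at 0.05 over 16334 genes, with no block. Standard errors are the fold change over the square root of F. CPM use TMM-scaled library sizes. DESeq2 1.42.0, limma-voom (limma 3.58.1), RLE scaling, no filter, unique reads, exon reads, the summed Hsp70 pair, the replicate block and each library left out were the alternatives. Replicates differed beyond counting noise (chi-square per degree of freedom 18.2 between the saline and 61.2 between the immune complex libraries). The members and lists were chosen with earlier results of these data known. Of 163 list entries 162 were matched. Named genes are the 10 members, the 2 lowest unadjusted p of each related list and the 5 nearest profiles; other names were chosen after their values were seen, apart from markers of the fixed lists.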

Additional observations from a re-analysis of the deposited data

How the results depend on the processing

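Over all genes edgeR called 2 without a filter, 1 with unique reads, 55 with the replicate block and 0 to 279 with single libraries left out (47 without saline 1, 279 without saline 2), and DESeq2 called 96. Of the 10 heat shock genes 0 to 2 and of the related genes 0 to 1 were called with single libraries left out, the calls being those without saline 2. The replicate numbers are shared in the labels but not said to pair samples, and the block called 0 of the 10. Because the differences within the groups correlated at -0.13 across genes, a crossed pairing was added after the data were seen. It called 160 genes, 2 of the 10 and 1 related gene. The labels do not pair the samples this way, and a pairing picked from the same data cannot support these calls. Directions turned for Hspa8 with unique reads (-0.047), and for the small heat shock protein median, -0.11, without a filter (0.0085) and in DESeq2 (0.0045). With single libraries left out, the log2 difference ranged from -0.10 to 0.41 for Hspa8, -1.10 to 0.33 for Hsph1, -0.19 to 0.49 for Hspb1, -0.028 to 0.35 for Hspe1 and -0.10 to 0.30 for Hsf1. Medians ranged from -0.042 to 0.13 for the 10 genes, -0.23 to 0.00054 for small heat shock proteins, -0.24 to 0.10 for heat shock factors, -0.0065 to 0.083 for co-chaperones, -0.058 to 0.10 for mitochondrial chaperones, -0.15 to 0.29 for Hsp70 and Hsp110 relatives, -0.10 to 0.21 for J-domain proteins, 0.024 to 0.22 for TRiC and -0.018 to 0.13 for chaperones of the endoplasmic reticulum. The cause was not tested. With 2 libraries a group, a difference that a single library carries cannot be told apart from one between treatments, and depth limits Hspa1a and Hspb1 most, with as few as 57 and 123 unique reads.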
